A study of Oryza sativa Japonica Group with 4 samples.

Results

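Arabinogalactan proteins are cell-surface glycoproteins of plants, and their genes were taken here as every gene whose deposited name contains the word arabinogalactan. This gave 55 genes of the 35825 listed. They comprise 27 fasciclin-like arabinogalactan proteins (written FLA with their deposited number), 22 genes named arabinogalactan protein and a number (AGP), 5 non-specific lipid transfer protein-like arabinogalactan proteins (LTP-like AGP) and 1 arabinogalactan peptide (AG peptide 3).

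RNA came from rice anthers (*Oryza sativa* ssp. japonica, variety Tainung 67). Sterile-panicle plants (*sstl-s*) were set against fertile-panicle plants (*SSTL-F*), which the labels name the control. Both are segregants of *sstl*, a semi-sterile line found in a T-DNA insertion collection, and in that line sterility did not follow the T-DNA, and the controls share the parent's background. The causal change is not given in the sources used here. Anthers were taken at the young microspore (YM) stage, after microspores leave the tetrads, and at the late pollen mitosis (LpM) stage, when sperm cells form. There was 1 library for each genotype and stage, 4 in all, so no difference below has a replicate check and none has a p-value. How many plants went into a library is not given in the sources used here.

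The protein backbone of an arabinogalactan protein is rich in hydroxyproline and carries branched chains of galactose and arabinose, and many members are tethered to the plasma membrane by a glycosylphosphatidylinositol (GPI) anchor. Fasciclin-like members add 1 or more fasciclin domains, a fold linked to adhesion between molecules at the cell surface. In *Arabidopsis*, members of the family act in microspore development, the pollen wall and pollen tube growth.

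Total counts per library were 10161675 to 11559430, and the smallest level this depth can show, 3 counts, was 0.246 to 0.309 CPM after TMM normalization (normalized counts as a rate per 1e6 reads), the scale used for all levels below unless RPKM is named. The summed level of 9 tapetum marker genes, all expressed, was 5014 CPM in *sstl-s* and 9953 CPM in *SSTL-F* at YM. At LpM it was 10553 CPM in *sstl-s* and 12070 CPM in *SSTL-F*. The most abundant genes weigh most in these sums. The median log2 fold change of *sstl-s* over *SSTL-F* for these genes was -0.71 at YM. There 2 were lower by 2-fold or more and 0 higher (4.24% and 8.21% of all expressed genes). At LpM the median was -0.03, with 0 lower by that margin and 1 higher (6.58% and 4.45% of all expressed genes). The higher one was TDR INTERACTING PROTEIN2 at 1.28. The tapetum markers thus had no common direction at LpM. Of 3 genes with pollen-specific names, 1 was expressed and summed levels were 37.3 to 43.1 CPM in the 4 libraries, while the pollen-specific calmodulin-binding protein was at 0 throughout, so these names give little check of pollen content. Photosystem and chlorophyll-binding genes, 19 of 21 expressed and PHOTOSYSTEM I SUBUNIT_2 at 0 throughout, summed to 447 CPM in *sstl-s* against 363 CPM in *SSTL-F* at YM, and to 911 CPM in *sstl-s* against 920.4 CPM in *SSTL-F* at LpM. The near-equal LpM sums cover members that differ in direction, with a median log2 fold change of *sstl-s* over *SSTL-F* of -0.52. Of these genes, 4 were lower by 2-fold or more and 0 higher (6.58% and 4.45% of all expressed genes). Their part in the differences below was not tested. In bulk anthers, fewer cells of a type and less RNA per cell cannot be told apart.

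Of the 55 genes, 39 reached 10 counts in 1 library or more and are called expressed, as were 24543 of all genes. The expressed members were 19 FLA genes, 16 AGP genes, 3 LTP-like AGP genes and AG peptide 3. The 16 others were FLA9, FLA13, FLA14, FLA15, FLA19, FLA20, FLA22, FLA23, AGP7, AGP10, AGP15, AGP16, AGP19, AGP30, LTP-like AGP6 and LTP-like AGP8. Among these, FLA13, FLA14, FLA23 and AGP10 had no count in any library, and the other 12 had at most 9 counts in any library. The genes lie on chromosomes 1 to 10, with 10 on chromosome 1 and 8 on chromosome 2, as placed by the RAP-DB identifiers beside them in the deposited gene order. In that order FLA15 stands next to FLA19, FLA13 next to FLA14, FLA6 next to FLA18, FLA4 next to AGP10 and AGP7 next to FLA23. The neighbours FLA6 and FLA4 were well expressed while FLA18 was low and AGP10 was at 0.

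Summed over all 55 genes, arabinogalactan protein transcripts stood apart in fertile anthers at LpM. The sum was 923 CPM in *sstl-s* and 994 CPM in *SSTL-F* at YM, an order that turns round without TMM, since the family held 0.0974% of the *sstl-s* counts and 0.0950% of the *SSTL-F* counts. At LpM the sum was 875 CPM in *sstl-s* and 1783 CPM in *SSTL-F*, and the share of counts was 0.0886% in *sstl-s* (95% exact Clopper-Pearson interval 0.0869 to 0.0904) and 0.175% in *SSTL-F* (0.172 to 0.177). Intervals here and below cover counting error only. The *sstl-s* sum was therefore 0.491 times that of *SSTL-F* at LpM and 0.928 times at YM. In *SSTL-F* the LpM sum was 1.79 times the YM sum, and in *sstl-s* it was 0.948 times.

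Both main branches shared the LpM gap but parted at YM. FLA transcripts summed to 618 CPM in *sstl-s* and 771 CPM in *SSTL-F* at YM, and to 672 CPM in *sstl-s* and 1252 CPM in *SSTL-F* at LpM. The AGP and LTP-like AGP genes together summed to 304 CPM in *sstl-s* and 222 CPM in *SSTL-F* at YM, and to 203 CPM in *sstl-s* and 528 CPM in *SSTL-F* at LpM. By these sums, sterile anthers had less FLA transcript at both stages. They had more AGP transcript than fertile anthers at YM but less at LpM. The YM excess was not shared by all members of that branch. At YM the interval of the log2 fold change lay above 0 for 7 of its 19 expressed genes and below 0 for 5. Among the higher ones, AGP13 had 86.5 CPM in *sstl-s* YM and 47.5 CPM in *SSTL-F* YM. AGP17 had 47.5 CPM in *sstl-s* YM and 15.5 CPM in *SSTL-F* YM.

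**Figure D1:**
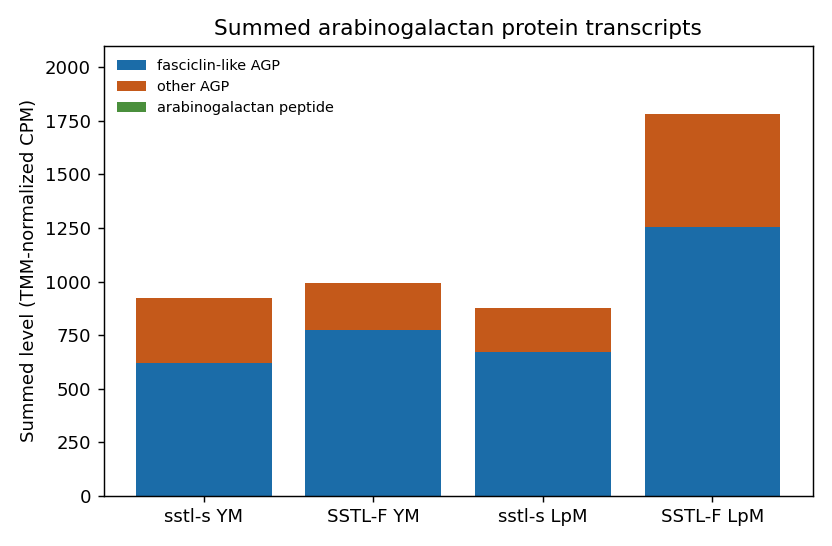
Stacked bars give the summed TMM-normalized CPM of fasciclin-like, other arabinogalactan protein and arabinogalactan peptide genes in each of the 4 libraries. The *SSTL-F* LpM bar reaches 1783 CPM and the other 3 lie between 875 and 994 CPM; AG peptide 3, at most 2.04 CPM, is too small to be seen.

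Of the 39 expressed members, 27 had their highest level in *SSTL-F* LpM, a pattern held by 29.7% of all expressed genes. These included 16 of 19 FLA genes and 10 of the 19 AGP and LTP-like AGP genes. A further 7 members were highest in *sstl-s* YM (24.5% of all genes), namely AGP3, AGP4, AGP17, AGP21, AGP26, AGP29 and FLA17. AGP20, AGP23, LTP-like AGP2 and FLA25 were highest in *SSTL-F* YM (27.7% of all genes), and FLA10 alone was highest in *sstl-s* LpM (18.1%).

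Per length of transcript, the most abundant members over the 4 libraries were FLA3 with a mean of 103 RPKM, AGP13 with 81.8 RPKM, AGP20 with 60.9 RPKM, FLA1 with 56.2 RPKM, FLA6 with 46.4 RPKM and FLA24 with 45.2 RPKM. The order differed between libraries. AGP13 led in *sstl-s* YM with 115 RPKM, where FLA3 had 85.4 RPKM, and FLA3 led in the other 3 libraries. AGP5, outside the 6 by its mean, came next after FLA3 in *SSTL-F* LpM with 113 RPKM. FLA3 alone held 19.1% of the family's counts in *sstl-s* YM, 22.6% in *SSTL-F* YM, 21.1% in *sstl-s* LpM and 18.9% in *SSTL-F* LpM. Its share of the family thus varied little between libraries. The share of AGP5 varied more, with 2.10% of the family's counts in *sstl-s* YM and 2.99% in *SSTL-F* YM, while its share was 3.02% in *sstl-s* LpM and 10.6% in *SSTL-F* LpM.

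The LpM comparison asks how sterile and fertile anthers differ once pollen should be maturing. Of the 39 expressed members, 18 were lower in *sstl-s* by 2-fold or more and 1 was higher by 2-fold or more, against 6.58% and 4.45% of all expressed genes. With log2(RPKM + 1) in place of normalized counts, 10 were lower by that margin. The median log2 fold change of *sstl-s* over *SSTL-F* was -0.91 for the members and 0.01 for all expressed genes. For 11 members the whole 95% counting interval lay past 2-fold lower (1.93% of all genes) and for none past 2-fold higher (0.941%). The interval lay below 0 for 30 members (22.2% of all genes), above 0 for FLA25 and AGP17 (20.8%), and held 0 for 7.

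AGP5 had the widest gap of the members with at least 50 counts. It had 26.5 CPM in *sstl-s* LpM and 189 CPM in *SSTL-F* LpM, and 19.3 CPM in *sstl-s* YM and 29.8 CPM in *SSTL-F* YM. Only the *SSTL-F* LpM library was high. The log2 fold change at LpM was -2.83 (95% interval -3.02 to -2.66), or 7.13-fold lower in *sstl-s*, and at YM it was -0.62 (-0.88 to -0.37).

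LTP-like AGP1 was also high in *SSTL-F* LpM alone. This type of protein joins a lipid transfer domain to an arabinogalactan-bearing part, the architecture of xylogen, a protein first known from *Zinnia* cell cultures. It had 27.1 CPM in *sstl-s* LpM and 83.8 CPM in *SSTL-F* LpM, against 23.1 CPM in *sstl-s* YM and 16.7 CPM in *SSTL-F* YM. The log2 fold change at LpM was -1.63 (-1.82 to -1.44) and at YM 0.47 (0.19 to 0.76).

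Among the FLA genes, 8 of 19 were at least 2-fold lower in *sstl-s* at LpM (6.58% of all genes). The AGP and LTP-like AGP genes were similar, with 9 of 19. For 5 FLA genes, FLA5, FLA6, FLA7, FLA26 and FLA27, the whole interval lay past 2-fold lower (1.93% of all genes), as it did for 5 AGP and LTP-like AGP genes. FLA5 had 17.8 CPM in *sstl-s* LpM and 56.4 CPM in *SSTL-F* LpM, with 26.1 CPM in *sstl-s* YM and 25.5 CPM in *SSTL-F* YM. The YM libraries were level and the LpM difference was -1.66 (-1.90 to -1.43). FLA26 had 9.45 CPM in *sstl-s* LpM and 24.5 CPM in *SSTL-F* LpM, with 9.43 CPM in *sstl-s* YM and 7.01 CPM in *SSTL-F* YM. Again *SSTL-F* LpM was the high library, with a log2 fold change of -1.36 (-1.71 to -1.04) at LpM.

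FLA6, FLA27 and FLA11 were lower in *sstl-s* at both stages. FLA6 had 43.6 CPM in *sstl-s* LpM and 114 CPM in *SSTL-F* LpM, and 36.5 CPM in *sstl-s* YM and 69.6 CPM in *SSTL-F* YM. Its log2 fold changes were -1.39 (-1.54 to -1.24) at LpM and -0.93 (-1.11 to -0.76) at YM. FLA27 had 6.06 CPM in *sstl-s* LpM and 21.3 CPM in *SSTL-F* LpM, and 5.33 CPM in *sstl-s* YM and 12.6 CPM in *SSTL-F* YM. Both *sstl-s* libraries lay below both *SSTL-F* libraries for FLA6 and FLA27. The FLA27 log2 fold changes were -1.80 (-2.22 to -1.42) at LpM and -1.22 (-1.70 to -0.79) at YM. FLA11 had 13.5 CPM in *sstl-s* LpM and 32.4 CPM in *SSTL-F* LpM, and 5.41 CPM in *sstl-s* YM and 14.8 CPM in *SSTL-F* YM. Both genotypes had more FLA11 transcript at LpM than at YM. Its log2 fold change of -1.44 (-1.90 to -1.03) at YM was past 2-fold over the whole interval, whereas -1.25 (-1.54 to -0.98) in the LpM pair was not quite.

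A large share of the remaining FLA genes lay just short of 2-fold at LpM. FLA2, FLA3, FLA4, FLA12, FLA16 and FLA24 had log2 fold changes of -0.80 to -0.92. FLA3 had 184 CPM in *sstl-s* LpM and 337 CPM in *SSTL-F* LpM, and 177 CPM in *sstl-s* YM and 224 CPM in *SSTL-F* YM. The most abundant member was therefore 1.83-fold lower in *sstl-s* at LpM and 1.27-fold lower at YM. FLA24 had 99.8 CPM in *sstl-s* LpM and 186 CPM in *SSTL-F* LpM, and 70.6 CPM in *sstl-s* YM and 82.0 CPM in *SSTL-F* YM. FLA1, which in rice takes part in forming the pollen exine, varied least of the 6 most abundant members. It had 101 CPM in *sstl-s* LpM and 134 CPM in *SSTL-F* LpM, and 100.4 CPM in *sstl-s* YM and 114 CPM in *SSTL-F* YM, with log2 fold changes of -0.41 (-0.53 to -0.30) at LpM and -0.18 (-0.30 to -0.06) at YM.

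FLA25 was the 1 member that exceeded *SSTL-F* by 2-fold or more in *sstl-s* LpM. It falls outside the rule for named genes and was singled out after its values were seen. It narrowly missed the 6 members whose change from YM to LpM differed most between genotypes. That difference, *sstl-s* minus *SSTL-F*, was 2.1672 for FLA25 and -2.1677 for AGP13, which was taken. FLA25 had 4.46 CPM in *sstl-s* LpM and 1.51 CPM in *SSTL-F* LpM, from 50 counts in *sstl-s* and 17 in *SSTL-F*. At YM it had 11.7 CPM in *sstl-s* and 18.5 CPM in *SSTL-F*. FLA25 was thus low in both LpM libraries and lowest in the fertile one. The log2 fold change of FLA25 was 1.51 (0.75 to 2.45) in the LpM pair and -0.66 (-0.99 to -0.34) at YM. It was the only member above 0 at LpM and below 0 at YM, a pattern of 3.1% of all genes.

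**Figure D2:**
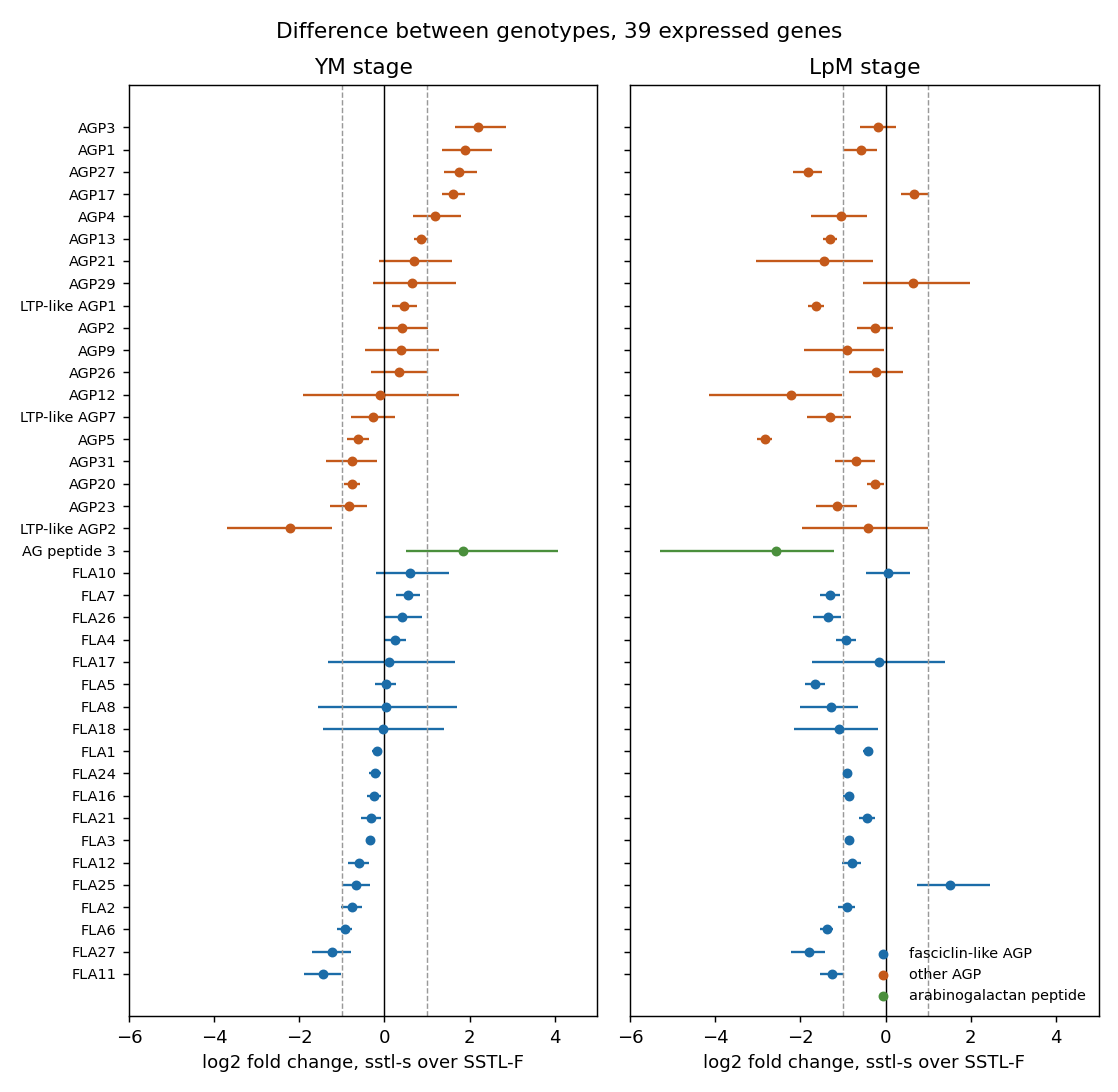
Points give the log2 fold change of *sstl-s* over *SSTL-F* for the 39 expressed members at YM (left) and LpM (right), lines the 95% counting interval, and dashed lines 2-fold. At LpM 30 intervals lie below 0, and at YM the highest points are AGP genes, led by AGP3 at 2.20.

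At YM the members had no common direction. Of the 39, 6 were higher in *sstl-s* by 2-fold or more and 3 lower by 2-fold or more, against 8.21% and 4.24% of all expressed genes. The median log2 fold change was 0.03 for the members and -0.03 for all genes, and the median of the members was -0.11 with quantile normalization. The branches differed, with a median of -0.22 for the 19 FLA genes and 0.41 for the 19 AGP and LTP-like AGP genes. All 6 higher members lay outside the FLA branch, and the interval lay below 0 for 11 FLA genes (24.1% of all genes) and above 0 for 1, FLA7 (17.5%). The AGP and LTP-like AGP genes were mixed, with the interval above 0 for 7, below 0 for 5 and holding 0 for 7.

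AGP1, AGP3, AGP17 and AGP27 had the whole interval past 2-fold higher in *sstl-s* at YM (1.77% of all genes). AGP3 had 14.1 CPM in *sstl-s* YM and 2.99 CPM in *SSTL-F* YM, and 8.20 CPM in *sstl-s* LpM and 9.31 CPM in *SSTL-F* LpM. The *SSTL-F* YM library stood low and the LpM libraries were alike. The log2 fold change was 2.20 (1.66 to 2.86) at YM, from 172 counts in *sstl-s* and 29 in *SSTL-F*, and -0.18 (-0.60 to 0.24) at LpM. AGP1 had 12.1 CPM in *sstl-s* YM and 3.19 CPM in *SSTL-F* YM, and 8.20 CPM in *sstl-s* LpM and 12.3 CPM in *SSTL-F* LpM. Here too the fertile YM library was the low one, with log2 fold changes of 1.90 (1.36 to 2.53) for YM and -0.58 (-0.98 to -0.20) for LpM.

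AGP17 was higher in *sstl-s* at both stages, alone among the 18 members chosen by the rule for named genes. It had 47.5 CPM in *sstl-s* YM and 15.5 CPM in *SSTL-F* YM, and 19.4 CPM in *sstl-s* LpM and 12.2 CPM in *SSTL-F* LpM. Sterile anthers at YM were the high library. The log2 fold changes were 1.62 (1.36 to 1.89) for YM and 0.66 (0.35 to 0.99) for LpM.

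LTP-like AGP2 and FLA11 had the whole interval past 2-fold lower in *sstl-s* at YM (0.941% of all genes). LTP-like AGP2 rests on few counts, 8 in *sstl-s* YM and 33 in *SSTL-F* YM, and is named after its values were seen. Its log2 fold change was -2.23 (-3.70 to -1.23). AGP20, next to AGP13 among AGP genes by mean RPKM, had 31.7 CPM in *sstl-s* YM and 53.7 CPM in *SSTL-F* YM, and 34.2 CPM in *sstl-s* LpM and 40.4 CPM in *SSTL-F* LpM. It was lower in *sstl-s* at both stages, at -0.76 (-0.95 to -0.57) for YM and -0.24 (-0.44 to -0.04) for LpM on the log2 scale.

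**Figure D3:**
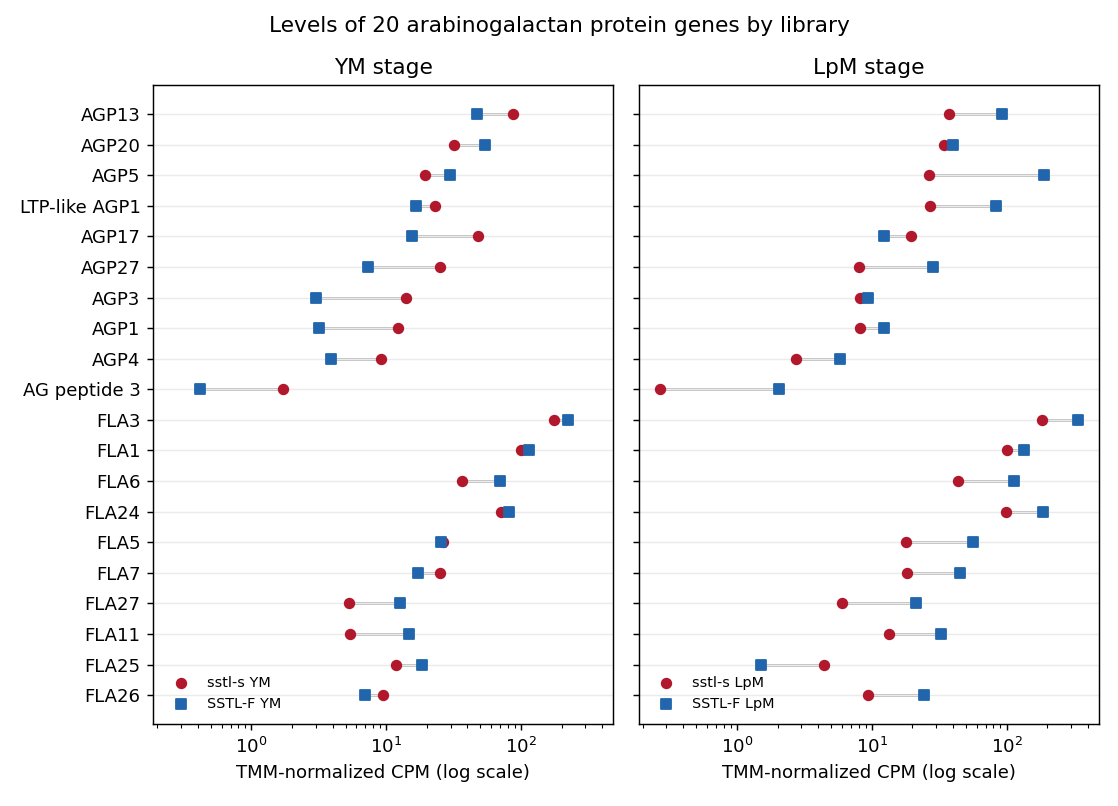
Points give the TMM-normalized CPM, on a log axis, of the 18 members chosen by the rule for named genes and of FLA25 and AG peptide 3, with *sstl-s* as circles and *SSTL-F* as squares at YM (left) and LpM (right). AGP27 lies higher in *sstl-s* at YM (25.0 CPM, against 7.31 in *SSTL-F*) and lower at LpM (8.02 CPM, against 28.5 in *SSTL-F*), and AGP5 shows the widest LpM gap.

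The genotype order turned round between stages for 7 members. In AGP1, AGP4, AGP13, AGP27, LTP-like AGP1, FLA7 and AG peptide 3 the interval lay above 0 at YM and below 0 at LpM, a pattern of 7 of 39 members and of 1.76% of all expressed genes. AGP27 showed it past 2-fold over the whole interval at both stages, with 25.0 CPM in *sstl-s* YM and 7.31 CPM in *SSTL-F* YM, and 8.02 CPM in *sstl-s* LpM and 28.5 CPM in *SSTL-F* LpM. The level in *sstl-s* YM was near that in *SSTL-F* LpM, and the other pair was low. Its log2 fold changes were 1.76 (1.40 to 2.17) for YM and -1.82 (-2.18 to -1.49) for LpM.

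AGP13, with a mean RPKM next to that of FLA3, showed the same crossing at a higher level. It had 86.5 CPM in *sstl-s* YM and 47.5 CPM in *SSTL-F* YM, and 37.3 CPM in *sstl-s* LpM and 92.3 CPM in *SSTL-F* LpM. Its log2 fold changes were 0.86 (0.71 to 1.03) for YM and -1.30 (-1.47 to -1.14) for LpM. AGP27 and AGP13 both lie on chromosome 7. AGP4 had 9.10 CPM in *sstl-s* YM and 3.91 CPM in *SSTL-F* YM, and 2.76 CPM in *sstl-s* LpM and 5.85 CPM in *SSTL-F* LpM. FLA7 had 25.2 CPM in *sstl-s* YM and 17.3 CPM in *SSTL-F* YM, and 18.4 CPM in *sstl-s* LpM and 45.6 CPM in *SSTL-F* LpM. FLA7 was the only FLA gene with this crossing.

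Arabinogalactan peptides have a very short protein backbone. AG peptide 3, named after its values were seen, had 21 counts in *sstl-s* YM and 4 in *SSTL-F* YM, and 3 counts in *sstl-s* LpM and 23 in *SSTL-F* LpM. The crossing was the same as in AGP27, on few counts. The log2 fold changes were 1.85 (0.50 to 4.07) for YM and -2.57 (-5.31 to -1.2) for LpM. In contrast to these 7, the interval lay below 0 at both stages for 14 members (10.3% of all genes), of which 10 were FLA genes and 4 were AGP5, AGP20, AGP23 and AGP31.

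Within fertile anthers the family was higher at the later stage. In *SSTL-F*, 16 of 39 members were at least 2-fold higher at LpM than at YM and 2 at least 2-fold lower, against 12% and 4.95% of all expressed genes. The median log2 fold change of LpM over YM was 0.75 for the members and -0.02 for all genes. The whole interval lay past 2-fold higher for 9 members (4.72% of all genes) and past 2-fold lower for 1 (1.99%), above 0 for 28 (23.2%) and below 0 for 3 (25.8%). AGP5 was 6.34-fold higher, with a log2 fold change of 2.67 (2.49 to 2.85), LTP-like AGP1 5.0-fold higher at 2.32 (2.09 to 2.58), and AGP27 3.87-fold higher at 1.95 (1.59 to 2.36). FLA25 went the other way, at -3.54 (-4.43 to -2.90).

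Sterile anthers lacked this common direction. In *sstl-s*, 2 of 39 members, FLA8 and FLA11, were at least 2-fold higher at LpM than at YM and 7 at least 2-fold lower, against 7.39% and 4.51% of all expressed genes. The median log2 fold change of LpM over YM was 0.00, with 0.18 for FLA genes and -0.43 for AGP and LTP-like AGP genes. The whole interval lay past 2-fold higher for 0 members (2.46% of all genes) and past 2-fold lower for 5 (0.97%), above 0 for 9 (20.1%) and below 0 for 13 (18.6%). The members at least 2-fold lower at LpM were AGP4, AGP13, AGP17, AGP21, AGP27, AG peptide 3 and FLA25. AGP5, which had 26.5 CPM at LpM and 19.3 CPM at YM in *sstl-s*, had a log2 fold change of 0.45 (0.20 to 0.71). LTP-like AGP1, at 0.23 (-0.01 to 0.47), held 0.

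For 8 members the whole interval of the stage change lay below 0 in *sstl-s* and above 0 in *SSTL-F*. These were AGP1, AGP3, AGP13, AGP27, FLA4, FLA5, FLA7 and AG peptide 3. Of all expressed genes, 1.45% had this pattern. By the same intervals, the reverse was held by 1.78% of all genes and seen in 0 members. AGP27 had the widest difference of the members with at least 50 counts, with a stage change of -1.63 (-2.0 to -1.30) in *sstl-s* and 1.95 (1.59 to 2.36) in *SSTL-F*. FLA11 was the only FLA gene chosen by the rule with a larger stage change in *sstl-s*, with values of 1.31 (0.90 to 1.76) in *sstl-s* and 1.12 (0.85 to 1.42) in *SSTL-F*.

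**Figure D4:**
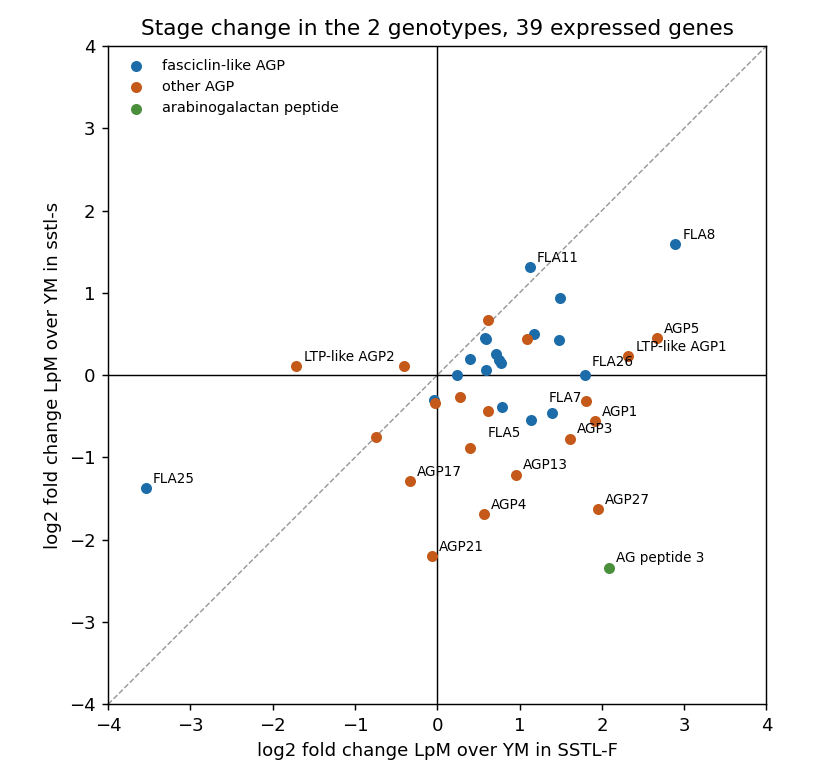
Each point is 1 of the 39 expressed members, placed by its log2 fold change of LpM over YM in *SSTL-F* (horizontal) and in *sstl-s* (vertical), and the dashed line marks equal change. Most points lie right of 0 and below the dashed line, with AGP27 at -1.63 in *sstl-s* and 1.95 in *SSTL-F*.

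Genes that share a domain, a sugar chain or an anchor with the family were taken by words in their names. The 1 fasciclin-domain gene outside it, MICROSPORE AND TAPETUM REGULATOR1 (MTR1), encodes a secreted fasciclin glycoprotein needed in rice for microspore and tapetum development. It had 12.7 CPM in *sstl-s* LpM and 2.22 CPM in *SSTL-F* LpM, and 54.3 CPM in *sstl-s* YM and 64.4 CPM in *SSTL-F* YM. The MTR1 log2 fold change was 2.48 (1.90 to 3.20) in the LpM pair, higher in *sstl-s* as was FLA25.

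Among these lists, the GPI-anchored lipid transfer proteins, which the words for a GPI anchor found, had the lowest median at LpM. Of 16 expressed among 22, 8 were lower in *sstl-s* LpM by 2-fold or more and 0 higher (6.58% and 4.45% of all genes), the median being -1.0 on the log2 scale. At YM 2 were higher by that margin and 1 lower (8.21% and 4.24% of all genes, so close to the background), the median being -0.31. The name GPI-anchored non-specific lipid transfer protein 1 covers the entries 1_1 and 1_2. Entry 1_1 had 33.5 CPM in *sstl-s* LpM and 108 CPM in *SSTL-F* LpM, and 24.3 CPM in *sstl-s* YM and 34.2 CPM in *SSTL-F* YM. It was thus high in *SSTL-F* LpM alone, as AGP5 was, with a log2 fold change of -1.69 (-1.86 to -1.52) at LpM. Entry 1_2, with 9 counts in *sstl-s* LpM and 23 in *SSTL-F* LpM, had -1.25 (-2.64 to -0.18) at LpM and 0.49 (-1.02 to 2.26) at YM. GPI-anchored non-specific lipid transfer proteins 9, 12 and 24 had -1.78, -1.40 and -1.47 at LpM.

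Early nodulin-like and uclacyanin-like proteins, phytocyanin relatives of which some carry arabinogalactan chains, had a median of -0.28 at LpM and -0.20 at YM. Of 23 expressed among 56, 5 were at least 2-fold lower and 1 higher in *sstl-s* at LpM (6.58% and 4.45% of all genes). At YM 1 was lower and 1 higher (4.24% and 8.21% of all genes), so the YM counts were not above this background by a whole gene. UCLACYANIN-LIKE PROTEIN 23 and EARLY NODULIN LIKE PROTEIN 24 gave -1.86 (-2.37 to -1.42) and -2.33 (-3.31 to -1.60) for LpM, and EARLY NODULIN LIKE PROTEIN 13 had -1.87 (-2.66 to -1.22) at YM.

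Few enzymes that supply sugars for the chains passed 2-fold. Of 10 nucleotide sugar genes, all expressed, 1 exceeded 2-fold in *sstl-s* LpM, UDP-xylose synthase 1 at 1.03 (0.38 to 1.76), and 0 were lower (4.45% and 6.58% of all genes). UDP-xylose synthase 1 is named after its values were seen. The list as a whole leaned lower in *sstl-s*, with a median of -0.32 at LpM and -0.44 at YM. It summed to 2272 CPM in *sstl-s* and 2907 CPM in *SSTL-F* at LpM, and to 2328 CPM in *sstl-s* and 3168 CPM in *SSTL-F* at YM. UDP-ARABINOPYRANOSE MUTASE 1, 2 and 3, which make the furanose form of UDP-arabinose and are named for that role outside the rule, gave -0.18, -0.21 and -0.50 on the log2 scale for LpM and -0.29, -0.29 and -0.46 for YM. The words for proline hydroxylation and O-glycosylation found 3 genes, none named for acting on arabinogalactan proteins, and 0 passed 2-fold at either stage.

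Beta-galactosidases, a class of which some members can trim galactose from such chains, included members of either direction. Of 15 expressed sugar chain breakdown genes, 4 were at least 2-fold lower and 1 higher in *sstl-s* at LpM (6.58% and 4.45% of all genes), with a median of -0.29. BETA-GALACTOSIDASE 2 had 55.0 CPM in *sstl-s* LpM and 158 CPM in *SSTL-F* LpM, at -1.52 (-1.66 to -1.39), and BETA-GALACTOSIDASE 14 had 20.1 CPM in *sstl-s* LpM and 67.2 CPM in *SSTL-F* LpM, at -1.74 (-1.97 to -1.53). At YM, BETA-GALACTOSIDASE 14 was the 1 gene of this list past 2-fold, higher in *sstl-s* at 1.10 (0.44 to 1.87), with 5.41 CPM in *sstl-s* and 2.47 CPM in *SSTL-F* (8.21% of all genes were higher by that margin). At LpM, BETA-GALACTOSIDASE 5 was also lower, at -3.02 (-3.60 to -2.54). BETA-GALACTOSIDASE 6 was the higher one, with 15.5 CPM in *sstl-s* LpM and 3.90 CPM in *SSTL-F* LpM, at 1.97 (1.51 to 2.50).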

How the data were processed

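The authors extracted RNA with TRIzol, sequenced single-end libraries on an Illumina HiSeq instrument and processed reads in CLC Genomics Workbench 11 with RAP-DB annotation. Genome build and mapping settings are not given in the sources used here. The deposited total counts per gene are the basis of all levels and fold changes. The deposited RPKM column, made by the authors, served for levels between genes and as an alternative. The deposited TPM values and the column the authors headed CPM, treated as a score because its sums differ between libraries, were only inspected. Counts were normalized by TMM (edgeR 4.0.16, R 4.3.3) over the 4 libraries. Log2 fold changes used a prior count of 1. The 95% intervals come from the exact Clopper-Pearson limits on each gene's share of reads. No model was fitted. Fold changes and intervals were checked on simulated counts, drawn with counting error only, for genes with a mean of at least 50 counts. That check does not cover variation between plants or genes with few counts. Reads shared between near-identical copies could have been split by the counting, so single members carry that uncertainty.

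Named members were those with at least 50 counts in 1 library and the whole interval past 2-fold between genotypes, the 6 most abundant by RPKM, and the 6 with at least 50 counts whose stage change differed most. Named genes of other lists, at most 4 a list by RPKM, had at least 50 counts and the whole interval past 2-fold. The nucleotide sugar genes lie outside this rule. So does entry 1_2 of GPI-anchored non-specific lipid transfer protein 1, given because it shares its name with entry 1_1. A CONSTANS-like regulator that the words for chlorophyll binding found was left out of the green tissue markers after its name was seen. Members and lists were chosen with earlier results of these data known. Hyphens and spaces in names were treated alike. Of 10 tapetum markers, 9 were matched and the other was not used here. Chromosomes come from 3 RAP-DB identifiers on each side. Sequences and coordinates were not used here. Alternatives tried were quantile normalization (limma 3.58.1), scaling by library size only, size factors of DESeq2 1.42.0, TMM on the compared libraries, prior counts of 0.25 and 5, log2(RPKM + 1), a minimum of 50 counts and no filter. Further tools were scipy 1.17.1, pandas 2.3.3, matplotlib 3.10.9 and numpy 2.4.6 under Python 3.11.15.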

Additional observations from a re-analysis of the deposited data

Results flagged for a closer look

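The stage change is given as log2 of LpM over YM. For 7 members with at least 50 counts its whole interval lay below 0 in *sstl-s* and above 0 in *SSTL-F*. With 1 library for each genotype and stage, the difference was not tested. The stage change in *sstl-s* minus that in *SSTL-F* was -3.58 for AGP27, -2.48 for AGP1, -2.39 for AGP3 and -2.17 for AGP13. Among FLA genes it was -1.85 for FLA7, -1.69 for FLA5 and -1.17 for FLA4.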

How the results depend on the processing

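No paired analysis was possible because the labels give no replicate numbers and each genotype and stage has 1 library. A fit of genotype with stage as a block, which would take the stage-by-genotype difference as error, was not run. For the same reason no value has a replicate check, and the depth limits members with few counts, such as AG peptide 3 and LTP-like AGP2. With log2(RPKM + 1), which understates changes of low genes and moved the median of all genes by 0.18 at LpM and 0.14 at YM, 10 members were at least 2-fold lower in *sstl-s* at LpM in place of 18, and the median of the members was -0.65 in place of -0.91. Library size alone moved the median of all genes by 0.14 at YM. With no filter on low counts, 9 members in place of 3 were at least 2-fold lower in *sstl-s* at YM, and 6 in place of 2 at least 2-fold lower at LpM in *SSTL-F*, where at least 50 counts left 1. The members that the missing filter added had at most 9 counts in any library, so their fold changes rest on few reads. The shares of all genes without the filter are not given here. The median of the members at YM, 0.03, was -0.18 with at least 50 counts and -0.11 with quantile normalization. Of 231 alternative values of the 33 named values past 2-fold, 0 changed direction and 6 came under 2-fold. These were, with log2(RPKM + 1), AGP4 (-0.72), FLA11 (-0.94) and FLA26 (-1.0 after rounding) at LpM, FLA27 at YM (-0.93) and the *SSTL-F* stage change of FLA11 (0.99), and AGP4 at LpM with a prior count of 5 (-0.97).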
